A study of Mus musculus with 18 samples.

Results

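Luminal cells of terminal end buds (TEBs) were compared with luminal cells of the subtending ducts in the pubertal mouse mammary gland, by single-cell RNA sequencing of 1 TEB library and 1 duct library. A cell was kept when it had at least 500 detected genes and under 20% of its unique molecular identifiers (UMIs, counts of RNA molecules) from mitochondrial genes. A kept cell was called luminal when its Krt8 and Krt18 UMIs together exceeded its Krt5 and Krt14 UMIs. A luminal cell was called luminal progenitor (LP) when Kit, Elf5, Aldh1a3, Cd14 and Plet1 gave at least 2 UMIs and more than Prlr, Cited1, Areg, Pgr and Esr1. It was called mature luminal (ML) when the latter 5 genes gave at least 3 UMIs and more than the former. This left 2680 luminal cells in both libraries, of which 2491 were LP or ML, out of 72865 luminal cells by the same rule and 133710 kept cells in the 18 libraries of the series. The TEB library gave 367 LP and 1145 ML cells and the duct library 494 LP and 485 ML cells. Another 167 luminal cells of the TEB library and 22 of the duct library belonged to neither class, and in 140 and 18 of these a set of basal markers (Acta2, Trp63 and Myl9) had more UMIs than the LP or ML markers. Basal cells, 211 from TEBs and 740 from ducts, served as background.

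Both libraries came from females aged 5 weeks on a C57BL/6 background that carried an Ecadherin-GFP reporter. The reporter guided the dissection of TEBs and of ducts by hand from the glands of 3 mice, whose cells were pooled in each library, so no animal can be separated from another. The epithelium was then sorted as Lin-CD24+CD29+ cells before capture. Cell numbers were limiting, and the 2 libraries were processed at the same time. Neither group carried a treatment or a deletion. With 1 library in each group there was no replicate check, so no p-value is given. Levels are CPM, the UMIs of a gene scaled to a common total for each library and class. Ratios of CPM carry 95% counting intervals and shares of cells carry 95% exact binomial intervals. Both cover counting error only, not the spread between animals, dissections or libraries. Fewer cells with a transcript and less transcript in each cell cannot be told apart in these sums, and the share of cells with a UMI at a fixed depth falls with the level as well.

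TEBs are bulbous structures at the tips of growing ducts that drive elongation of the ductal tree in puberty and disappear in the adult gland. LP cells are the mostly hormone receptor-negative luminal cells from which milk-producing alveolar cells arise. ML cells are the hormone-sensing luminal cells that carry the estrogen and progesterone receptors and relay hormonal signals to their neighbours through paracrine factors such as amphiregulin (Areg). Basal cells surround both and are contractile in the ducts.

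The libraries held 45688910 UMIs (TEB) and 29525671 UMIs (duct). The median LP cell had 18367 UMIs in TEBs and 11792 in ducts, and the median ML cell 21597 and 20407, so LP levels rested on deeper cells in the TEB library. The libraries shared 8 barcodes, fewer than the 13 to 51 that either had in common with each of 11 other libraries and more than the 0 or 1 with each of 4 others of the same barcode length. These counts were not scaled to library size. The 11 libraries held 5696 barcodes or more, against 2087 in the TEB and 1973 in the duct library, so the lower count does not show less sharing. A doublet caller marked 10 of 1892 kept TEB cells and 5 of 1745 duct cells. Summed markers of fibroblasts, endothelial cells, immune cells and adipocytes reached at most 9.66 CPM in LP or ML cells of either library once restricted as described next.

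The label LP was checked against markers fixed for each class. The marker check was not met by all cells: 72 of the 367 TEB LP cells, which held 30.9% of the UMIs of the class, did not have LP markers at 5 times or more the UMIs of both the basal markers (Acta2, Trp63 and Myl9) and the ML markers. In 57 of these the basal set was the largest of the 3, with Acta2 (smooth muscle actin) at 3397 CPM and a median depth of 30361 UMIs. These 57 held luminal transcripts at lower levels than the LP cells that met the check, but to unequal degrees. Krt18 was at 74.3 CPM against 2251 CPM, Wfdc18 at 87.0 against 7612 CPM and Trf at 10.5 against 812 CPM. Krt8, at 342 against 1775 CPM, and Csn3, at 991 against 2463 CPM, were less reduced. TEB basal cells also held Krt8, at 206 CPM. Csn3 was 8.48-fold higher in TEB than in duct basal cells (7.76 to 9.27). In the other 15 of the 72 LP cells the LP set was the largest, with Acta2 at 1898 CPM. Only 10 duct LP cells fell short in the same way. Of the ML cells, 151 of the TEB library and 113 of the duct library fell short, and the LP set was the largest in 71 and 82 of these. The cells that met the check are called marker-restricted below: 295 TEB and 484 duct LP cells, 994 TEB and 372 duct ML cells, and 170 TEB and 731 duct basal cells. Acta2 was at 46.0 CPM in TEB and 45.9 CPM in duct LP cells so restricted, a level that the restriction itself sets. The restriction was added after the data had been seen. The doublet caller marked 2 of the 72 TEB LP cells left out, 7 of the 151 TEB ML cells, 1 of the 10 duct LP cells and 3 of the 113 duct ML cells. Beyond these values, what the cells left out are was not tested. LP and ML values of genes are those of marker-restricted cells, basal values are by the class rule unless said otherwise, and the value by the class rule is given as well where the ratio differs by more than 1.5 times.

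**Figure D1:**
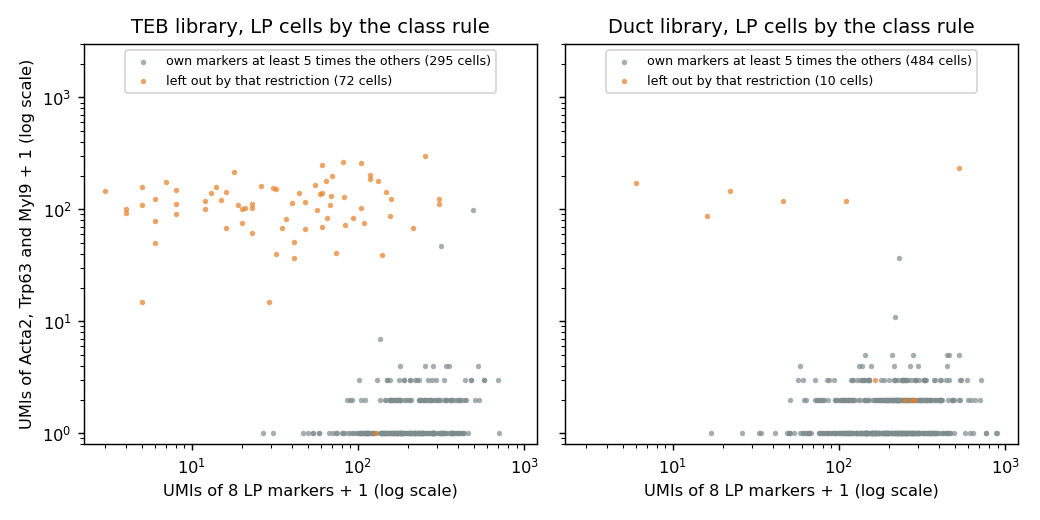
Each point is 1 LP cell by the class rule, with UMIs of the 8 LP markers on the x axis and UMIs of Acta2, Trp63 and Myl9 on the y axis, both plus 1 on log scales. The 72 TEB cells left out (orange) nearly all sit above the 295 kept (gray) on the basal axis, and the duct library had 10 cells left out.

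LP cells made up a smaller part of the luminal cells in TEBs than in ducts. They were 24.3% (95% interval 22.1 to 26.5) of 1512 LP and ML cells in TEBs and 50.5% (47.3 to 53.6) of 979 in ducts, a difference of -26.2 percentage points (-29.9 to -22.3). In marker-restricted cells the shares were 22.9% and 56.5%. The dissection and the sort can set these shares. Basal cells by the keratin rule were 11.2% of the kept cells in TEBs and 42.4% in ducts, a difference of -31.3 points. Counted instead as cells of any class in which the basal set was the largest, they were 426 of 1892 (22.5%) and 763 of 1745 (43.7%), a difference of -21.2 points (-24.2 to -18.2).

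Cells with transcripts of the cell cycle were more frequent in TEBs in all 3 classes. After each cell was thinned to 5000 UMIs, 249 of 361 TEB LP cells (69.0%) and 191 of 478 duct LP cells (40.0%) held at least 3 UMIs of 38 S phase and G2 and M phase genes. The difference was 29.0 percentage points (22.4 to 35.3), and 25 (17.7 to 31.8) in marker-restricted cells. In ML cells the shares were 63.3% of 1137 and 35.0% of 480, a difference of 28.3 points (23.1 to 33.3) that was 27.1 in marker-restricted cells. Basal cells of the same libraries showed 71.4% and 45.7%, a difference of 25.7 points (18.3 to 32.5), so the higher share was not particular to luminal cells. Without thinning the LP shares were 92.4% and 67.4% and the ML shares 96.2% and 85.2%. Thinning left out 6 TEB and 16 duct LP cells and 8 and 5 ML cells. The share counts cells with these UMIs and is not a count of dividing cells.

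**Figure D2:**
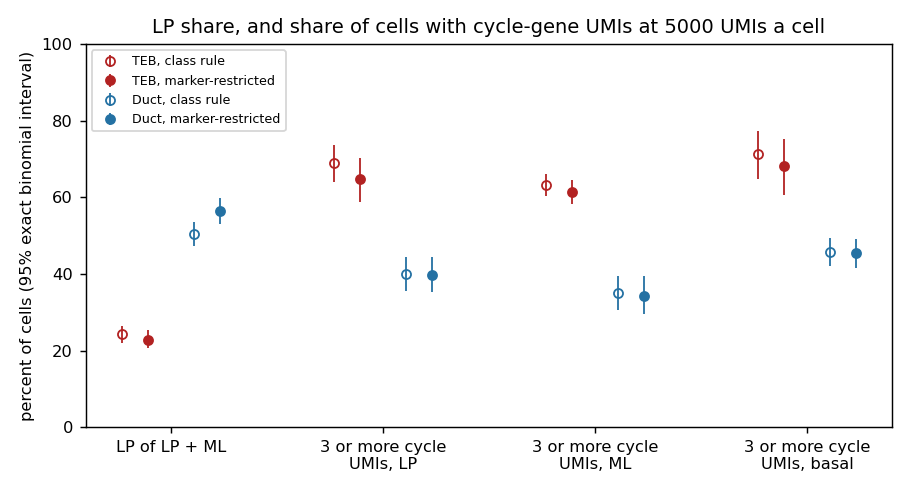
Percent of cells (y axis) with 95% exact binomial intervals: the LP share of LP and ML cells, and the share of LP, ML and basal cells with 3 or more cycle-gene UMIs at 5000 UMIs a cell, in TEBs (red) and ducts (blue). Open symbols are cells by the class rule and filled symbols are marker-restricted cells, and TEB and duct intervals do not overlap in any of the 4 comparisons.

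Genes were counted as different when the TEB and duct CPM, each from UMIs summed over the cells of a class, stood at least 2-fold apart at a mean of 10 CPM or more. In marker-restricted LP cells 273 of 7430 genes (3.67%) were higher in TEBs and 162 (2.18%) were lower, and in marker-restricted ML cells 212 of 7309 (2.9%) were higher and 77 (1.05%) lower. By the class rule alone, LP cells gave 562 genes higher (7.41% of 7583) and 245 lower (3.23%), and ML cells 206 higher (2.77% of 7450) and 105 lower (1.41%). Basal cells of the same libraries gave 196 higher (2.56% of 7668) and 397 lower (5.18%), or 158 (2.07%) and 372 (4.87%) when restricted by markers. Thus LP and ML cells leaned towards higher levels in TEBs and basal cells towards lower levels. The luminal lean did not hold under another scaling, and the basal lean did: with TMM factors from edgeR every LP gene shifted by -0.24, every ML gene by -0.17 and every basal gene by -0.07 on the log2 scale, and by the class rule the part of different genes that were higher in TEBs went from 69.6% to 48.1% in LP cells, from 66.2% to 51.5% in ML cells and from 33.1% to 25.9% in basal cells.

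As shares of the genes above the minimum, the LP and ML counts were no larger than those between libraries of one strain and stage. Adult FVB/NJ libraries A10 and D12, both of 10-week virgins, stood past 2-fold at 766 LP genes (11.2%) and 555 ML genes (7.93%) by the class rule, and at 11.6% and 8.7% in marker-restricted cells. The 2 pairs were not alike in design. TEBs and ducts came from the same pooled mice and were processed together, while A10 and D12 were biological replicates. Spread between animals therefore enters the adult pair only. Basal cells were not compared between adult libraries. The third FVB/NJ library, P7, stood apart: it differed past 2-fold from A10 and D12 at 46.8% and 34.4% of LP genes and 54.1% and 42.0% of ML genes, and its kept cells had a median of 0.40% mitochondrial UMIs against 3.56% and 3.13%. Its levels are therefore given apart from those of A10 and D12. The genes named below are the 12 with the largest ratio in each direction and class, leaving out genes that the class rule used and genes far higher in basal cells, and members of gene lists. Over all genes above the CPM minimum the median log2 ratio of TEB over duct was 0.23 in marker-restricted LP cells and 0.18 in ML cells.

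**Figure D3:**
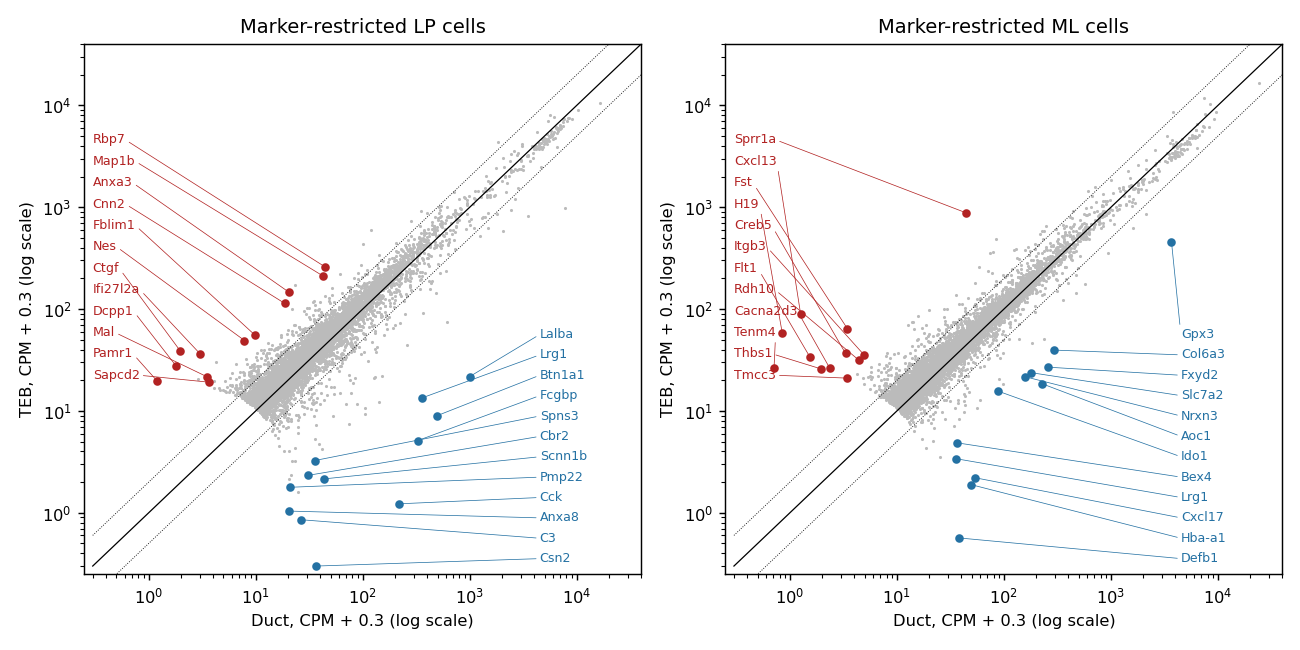
Each point is a gene with a mean of at least 10 CPM in marker-restricted LP cells (left) or ML cells (right), with its duct level on the x axis and its TEB level on the y axis as CPM + 0.3 on log scales. The solid line marks equal levels and dotted lines a 2-fold difference, and the named genes are the 12 with the largest ratio in each direction (red higher in TEBs, blue lower).

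Most milk genes above the minimum were lower in TEB LP cells. Of the 10 genes of the milk list, 7 were above the CPM minimum in marker-restricted LP cells and 6 of those were at least 2-fold lower in TEBs, with a median log2 ratio of -3.36. Csn1s2a, Csn2 and Btn1a1 were under 10 CPM in TEBs and passed the minimum through their duct level, so the count and the median are a description. The list summed to 229 CPM in TEBs and 1910 CPM in ducts. It does not hold Csn3, the most abundant casein, which is on the LP identity list, and with Csn3 the sums were 2693 and 6542 CPM, 2.43-fold lower (2.38 to 2.48). Lalba, which encodes alpha-lactalbumin of the lactose synthase complex, was at 21.4 CPM in TEBs and 1000.1 CPM in ducts, 46.6-fold lower (38.8 to 56.5). At 5000 UMIs a cell, Lalba was detected in 4.8% of TEB and 45.9% of duct LP cells, against at most 1.4% of marker-restricted ML cells in either library. The restriction left out ML cells with LP markers, and the duct ML cells left out held Lalba at 310 CPM. The low ML share was thus partly set by the choice of cells. Btn1a1, butyrophilin of the milk fat globule membrane, was at 8.7 CPM and 497 CPM, 57.2-fold lower (42.9 to 78.0), and was detected in 3.5% and 72.9% of LP cells. Xdh (xanthine dehydrogenase, a partner of butyrophilin at the milk fat globule) was 2.35-fold lower, at 14.2 and 33.4 CPM.

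The caseins were unequal among themselves. Csn3 (kappa-casein) was at 2463 CPM in TEBs and 4632 CPM in ducts, 1.88-fold lower and short of the 2-fold limit in marker-restricted cells. In basal cells Csn3 was instead 8.48-fold higher in TEBs, and 4.95-fold higher when restricted by markers. Csn1s1 was at 12.6 and 33.9 CPM (2.69-fold lower) and Csn1s2a at 2.0 and 20.9 CPM (10.3-fold lower). Csn2 (beta-casein) had no UMI in TEB LP cells and 242 in duct LP cells, at least 65.9-fold lower in TEBs against a floor of 3 counts, but 74.0% of those 242 UMIs came from 1 duct cell. Wap (whey acidic protein) stayed under the minimum at 0.37 and 2.7 CPM. Wfdc18, an abundant LP marker also outside the milk list, was at 7612 CPM in TEBs and 6117 CPM in ducts in marker-restricted cells. It was among the LP markers of the restriction, and the LP cells left out held it at 303 and 1958 CPM. Those cells held 30.9% of the class UMIs in TEBs and 4.33% in ducts. The choice of cells therefore set part of this ratio, and no direction is read from it.

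Milk levels also varied among other libraries. The mice of the pre-puberty C57BL/6 library were younger than those of the TEB and duct libraries. The C57BL/6 adults were older, of the same age in weeks as the FVB/NJ adults. Neither C57BL/6 library was therefore matched in age to TEBs and ducts. In LP cells of the pre-puberty and adult C57BL/6 libraries Lalba was at 97.7 and 113 CPM, and in the adult FVB/NJ libraries it was at 111 and 3810 CPM in D12 and A10 and at 1626 CPM in P7. The TEB level lay below all 5 of these and the duct level within the FVB/NJ range. Btn1a1 was at 88.0 CPM before puberty, 158 CPM in the C57BL/6 adult and 108 to 472 CPM in FVB/NJ, P7 included, so the TEB level was again the lowest and the duct level the highest. The milk list summed to 372 CPM before puberty and 494 CPM in the C57BL/6 adult, so the duct sum of 1910 CPM lay further from these libraries of the same strain background than the TEB sum of 229 CPM. Neither of these libraries shared more than 1 barcode with the TEB or duct library. The paper lists both, with the SWISS adult, as 1 group processed together and TEBs and ducts as another. Differences of age and of processing from these C57BL/6 libraries therefore cannot be told apart. In FVB/NJ the milk list summed to 458 CPM in D12, 30352 CPM in A10 and 18880 CPM in P7. The A10 and D12 libraries differed from each other by a log2 ratio of 5.10 at Lalba and 2.12 at Btn1a1.

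Promoters of milk genes were read from RefSeq on GRCm38.p6 (mm10), from 250 bases before to 50 after each start. They were those of 4 of the 6 members past 2-fold (Csn1s1, Csn1s2a, Csn2 and Lalba) and of Glycam1, Plin2 and Wap. The latter were list members not counted as past it: Wap was under the CPM minimum, and Plin2 was past 2-fold by the class rule only. The promoters were searched on both strands for TTCNNNGAA, the core of the GAS element bound by STAT5, the factor activated by the prolactin receptor. Of these 7 promoters, 4 held a match (Csn1s1, Csn1s2a, Csn2 and Glycam1), against 8.30% of all 32851 promoters of the same length. Csn1s1 and Csn2 had their match at -100 and -93 from the start, and Lalba had none in this window. Matches are in capitals below, and a match is a description of letters and not a binding site.
Csn1s1, chr5:87665958-87666257, plus strand: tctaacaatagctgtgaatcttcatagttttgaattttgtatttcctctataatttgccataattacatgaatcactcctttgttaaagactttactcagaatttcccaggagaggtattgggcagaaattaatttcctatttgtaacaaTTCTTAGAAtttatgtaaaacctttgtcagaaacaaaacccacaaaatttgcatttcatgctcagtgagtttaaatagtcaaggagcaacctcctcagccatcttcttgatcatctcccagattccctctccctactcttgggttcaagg
Csn2, chr5:87699376-87699675, minus strand: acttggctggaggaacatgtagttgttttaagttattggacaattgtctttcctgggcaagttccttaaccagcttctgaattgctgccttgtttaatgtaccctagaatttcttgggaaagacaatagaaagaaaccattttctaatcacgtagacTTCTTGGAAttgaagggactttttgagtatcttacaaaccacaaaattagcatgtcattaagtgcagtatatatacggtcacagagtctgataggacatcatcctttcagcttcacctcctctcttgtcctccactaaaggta
Lalba, chr15:98482634-98482933, minus strand: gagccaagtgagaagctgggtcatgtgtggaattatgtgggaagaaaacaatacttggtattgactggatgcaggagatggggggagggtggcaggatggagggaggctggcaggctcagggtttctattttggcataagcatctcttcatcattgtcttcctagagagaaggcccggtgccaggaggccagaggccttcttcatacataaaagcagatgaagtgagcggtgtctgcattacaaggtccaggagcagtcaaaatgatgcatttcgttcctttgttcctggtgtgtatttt

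Prlr, the prolactin receptor and a gene of the ML rule, was at 50.5 CPM in TEB and 104 CPM in duct LP cells, 2.06-fold lower (1.79 to 2.38). Elf5, a transcription factor of the alveolar lineage and a gene of the LP rule, was at 337 and 526 CPM. None of the 5 LP rule genes was past 2-fold in marker-restricted cells: Kit was at 135 and 155 CPM, Aldh1a3 at 224 and 282 CPM, Cd14 at 275 and 406 CPM, and Plet1 at 615 and 921 CPM. By the class rule, with the 72 cells included, Elf5, Cd14 and Plet1 were 2.08-fold, 2.05-fold and 2.06-fold lower in TEBs. These genes chose the cells and are given as a description.

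Other genes of LP identity were also lower in TEBs. Of 24 genes on that list 17 passed the CPM minimum in marker-restricted LP cells. The list had 7 members at least 2-fold lower, 1 higher and a median log2 ratio of -0.75 (class rule: 10 lower, 0 higher and -1.09), and its members summed to 15505 and 22347 CPM. Fcgbp and Cbr2 were under the CPM minimum in TEBs and passed it through their duct level. Trf and Csn3 were also among the LP markers of the restriction, so the count and the median are a description. Trf (transferrin, an iron carrier of milk) was at 812 CPM in TEBs and 3463 CPM in ducts, 4.26-fold lower (4.13 to 4.40). In basal cells Trf was past 2-fold lower in TEBs as well. Ltf (lactoferrin) was at 73.6 and 612 CPM, 8.32-fold lower (7.50 to 9.24). Mfge8, a milk fat globule protein that bridges dying cells to phagocytes, was at 578 and 2046 CPM. These secreted proteins, like the milk genes, were each lower in TEB LP cells than in duct LP cells.

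Other members of that list had other roles. Hey1, a target of Notch signalling, was at 89.9 and 249 CPM, 2.77-fold lower. Atp6v1b1, a subunit of the vacuolar proton pump, was at 91.5 and 369 CPM, 4.03-fold lower. Cbr2, a carbonyl reductase, was at 2.0 and 30.8 CPM, 15.2-fold lower in marker-restricted cells but only 1.88-fold lower by the class rule, and TEB basal cells held it at 54.5 CPM. Kcnn4, a calcium-activated potassium channel, was the only member at least 2-fold higher in TEBs, at 339 and 142 CPM (2.38-fold, 2.20 to 2.58).

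Other large ratios towards ducts in LP cells were those of Cck, Lrg1 and Fcgbp, the last a member of the LP identity list. Cck (cholecystokinin) was at 0.92 CPM in TEBs and 218 CPM in ducts, a 236-fold difference (101 to 728) that rested on 5 TEB UMIs. Fcgbp, a mucin-like secreted protein, was at 4.8 and 325 CPM, 67.6-fold lower (46.0 to 104), and was detected in 2.4% and 50% of LP cells. Lrg1, a secreted glycoprotein that modulates TGF-beta signalling, was at 13.1 and 359 CPM, 27.3-fold lower (21.6 to 35.1). All 3 were higher in the other libraries than in TEBs: Fcgbp was at 1142 CPM before puberty and 762 CPM in the C57BL/6 adult, Cck at 39.4 and 345 CPM, and Lrg1 at 124 and 153 CPM.

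Lower-level genes completed the set. C3 (complement) had 3 UMIs in TEB LP cells and 173 in duct LP cells, a ratio of 47.1 (15.9 to 231). Anxa8 (annexin A8), Scnn1b (a subunit of the epithelial sodium channel), Pmp22 and Spns3 were 27-fold, 23.1-fold, 13.9-fold and 12-fold lower, from duct levels of 19.9 to 42.8 CPM, and Pmp22 was 4.31-fold lower by the class rule. By the class rule the same list held Pinc, a noncoding RNA, and Csn1s2a in place of Cbr2 and Pmp22, and 10 of 12 genes were shared.

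Of the 12 genes named as higher in TEB LP cells, Rbp7, a cellular retinol-binding protein, had the highest level. Rbp7 was at 257 CPM in TEBs and 44.6 CPM in ducts, 5.77-fold higher (5.09 to 6.57), and was detected in 37.0% and 9.2% of cells. Anxa3 (annexin A3) was at 146 and 20.1 CPM, 7.28-fold higher (6.05 to 8.81), and was detected in 33.6% and 7.7%. Map1b, a microtubule-associated protein best known in neurons, was at 211 and 42.3 CPM, 4.98-fold higher, while in marker-restricted basal cells it was 5.41-fold lower in TEBs. For Rbp7 the duct level too lay above the 6.4 and 13.6 CPM of D12 and A10, the 1.5 CPM of P7 and the 2.7 CPM of the pre-puberty library. Anxa3 in ducts instead lay just under the 22.0 CPM of A10 and well under the 66.1 CPM of D12 and the 48.3 CPM of P7.

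Others of this group were lower in level. Nes (nestin, an intermediate filament protein of many progenitors) was at 48.8 and 7.6 CPM, 6.46-fold higher (4.76 to 8.93). Cnn2 (calponin 2) was at 114 and 18.3 CPM, but TEB basal cells held it at 436 CPM. Ctgf, a matricellular target of YAP and TGF-beta signalling, was at 38.8 and 1.7 CPM, 23.4-fold higher (12.8 to 47.5). Each of the 3 was seen in a minority of TEB LP cells, 21.1%, 41.9% and 12.1% at 5000 UMIs.

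Pamr1, Ifi27l2a, Mal, Fblim1 and Sapcd2 were 5.67-fold to 21.2-fold higher, from TEB levels of 18.9 to 55.3 CPM. Dcpp1 (27.2 and 1.5 CPM) drew 58.5% of its TEB UMIs from 1 cell. Tagln (transgelin) and Vim (vimentin), members of the basal list, were 7.50-fold and 2.86-fold higher in marker-restricted TEB LP cells (4.72-fold and 7.92-fold by the class rule), and TEB basal cells held them at 953 and 290 CPM.

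The class rule alone named a different set, and no gene was named as higher in LP cells in both. Its 12 genes were Mest, Pthlh, Meox1, Serpinf1, Sema3b, Nrg1, Tex36, Bdnf, Mfsd2a, Spsb4, Ccnd2 and Gpx2, at 25.8-fold to 97.4-fold higher. All 12 had a higher CPM in TEB basal cells than in TEB LP cells. In marker-restricted LP cells 11 of the 12 were still at least 2-fold higher in TEBs, but from TEB levels of 0.92 to 8.9 CPM, under the minimum, and Pthlh had 1 and 2 UMIs. Mest was at 98.6 and 1.0 CPM by the class rule, 2.0 and 0.45 CPM after restriction, and 165 CPM in TEB basal cells. Ccnd2 (cyclin D2) was at 175 and 6.2 CPM by the class rule, 6.3 and 1.2 CPM after restriction, and 554 CPM in TEB basal cells. The basal list showed the same: 13 of 17 members were at least 2-fold higher in TEB LP cells by the class rule (median log2 ratio 2.63), and 2 of 11 after restriction (0.36). Acta2, Trp63 and Myl9 were among the 13 and also set the restriction, so part of this fall was fixed by the choice of cells.

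Cell cycle genes were higher in TEB LP cells. Of 21 G2 and M phase genes above the minimum, 20 were at least 2-fold higher in marker-restricted LP cells, with a median log2 ratio of 1.56 (summed 2454 and 925 CPM). Mki67 was at 87.3 and 33.9 CPM (2.58-fold), Top2a (topoisomerase II alpha) at 127 and 47.9 CPM (2.65-fold) and Ube2c, a ubiquitin-conjugating enzyme of mitotic exit, at 222 and 60.8 CPM (3.66-fold). S phase genes were higher by less, with all 12 above 0, a median of 0.65 and Rrm2 and Clspn past 2-fold. The median over all LP genes was 0.23, so most genes were above 0 too. In basal cells by the class rule the G2 and M phase median was 0.66. The adult libraries lay lower for these genes, with summed levels in LP cells of 330 CPM in C57BL/6, 269 and 462 CPM in D12 and A10, and 141 CPM in P7.

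Immediate early and heat shock genes, which respond to tissue dissociation, moved with the LP comparison. Of 19, 6 were at least 2-fold lower in marker-restricted TEB LP cells (Junb, Btg2, Klf4, Klf6, Hspa1a and Hspa1b) with a median of -0.79, and 13 by the class rule (-1.13). In basal cells by the class rule 11 were lower (-1.09), and in marker-restricted ML cells the median was 0.09 (-0.14 by the class rule) with Hspa1a and Hspa1b lower and Ier3 higher. Junb was at 850 and 1788 CPM in LP cells. Their part in the other LP differences was not tested.

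Of the 12 genes named as lower in TEB ML cells, Gpx3 had the highest level. Gpx3, a secreted glutathione peroxidase, was at 456 CPM in TEBs and 3675 CPM in ducts, 8.06-fold lower (7.88 to 8.25), and was detected in 58.4% and 94.8% of ML cells, against 5.2% and 21.6% of LP cells. Its level was also past 2-fold lower in TEBs in LP cells and in basal cells, so this was not particular to ML cells. Aoc1, a secreted diamine oxidase, was at 18.2 and 227 CPM, 12.5-fold lower (11.2 to 14). Fxyd2, a regulator of the sodium pump, was at 26.6 and 257 CPM, 9.68-fold lower (8.82 to 10.6). Gpx3 in TEBs lay near the pre-puberty level of 558 CPM, and the duct level above the 2458 CPM of the C57BL/6 adult and the 1621 and 2589 CPM of D12 and A10 and below the 11519 CPM of P7.

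Other named genes had matrix and cell surface roles. Col6a3 (a collagen VI chain) was at 39.2 and 295 CPM, 7.51-fold lower (6.94 to 8.13). Nrxn3, a neurexin adhesion protein, was at 21.4 and 156 CPM, and Slc7a2, a cationic amino acid transporter, at 23.4 and 179 CPM (7.30-fold and 7.65-fold lower). Ido1, which breaks down tryptophan, was at 15.4 and 86.7 CPM. Col6a3 was at 8.3 and 109 CPM in D12 and A10, a log2 ratio of 3.72 that was larger than its TEB to duct difference, and at 203 CPM in P7. Nrxn3 was at 96.0 and 125 CPM in A10 and D12 and at 80.4 CPM in P7, all above the TEB level.

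Defb1 (beta-defensin 1) was at 0.27 and 38.0 CPM, 143-fold lower, but was detected in no more than 4.1% of duct ML cells. Cxcl17, a mucosal chemokine, was at 1.9 and 53.8 CPM, 28.2-fold lower (20.6 to 39.6), with 0.7% and 25.1% of cells. Lrg1 was 11.3-fold and Bex4 7.92-fold lower (21.9-fold and 4.53-fold by the class rule). Hba-a1, an alpha-globin gene with the near-identical copy Hba-a2, was at 1.6 and 48.4 CPM in ML cells, seen in 17.7% of duct ML cells, while Hbb-bs had no UMI in ML cells of either library and the 4 erythroid markers summed to 0.45 CPM in duct LP cells.

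Among the 12 genes named as lower in ML cells by the class rule, 8 were LP genes or others that the restriction displaced: Lalba, Btn1a1, Cck, Ltf, Fcgbp, Clic6, Trf and Atp6v1b1. Lalba was at 0.57 and 111 CPM by the class rule and at 0.089 and 2.7 CPM after restriction, and 82 of the 113 duct ML cells left out carried LP markers as their largest set. The LP identity list in ML cells turned with that choice. It summed to 1416 and 3184 CPM by the class rule (log2 ratio -1.17) and to 649 and 589 CPM after restriction (0.14). Trf and Csn3 of this list were among the LP markers by which cells were left out, so part of this turn was fixed by the choice of cells. The ML identity list in LP cells kept its direction at 152 and 410 CPM by the class rule (-1.43) and 148 and 312 CPM after restriction (-1.08), with Gpx3 and Glul the 2 members past 2-fold after restriction. At 5000 UMIs a cell the median marker-restricted LP cell held 75 UMIs of the LP identity list in TEBs and 110 in ducts, and the median ML cell 15 and 33 UMIs of the ML identity list.

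Of the 12 genes named as higher in TEB ML cells, Sprr1a, a cornified envelope precursor, had the highest level. Sprr1a was at 883 CPM in TEBs and 43.6 CPM in ducts, 20.2-fold higher (18.1 to 22.7), and was detected in 48.9% and 5.7% of ML cells. Its duct level was close to the pre-puberty level of 33.3 CPM and the 39.6 CPM of P7 and below the 66.8 and 150 CPM of D12 and A10, and TEB basal cells held it at 8.8 CPM. S100a14, a calcium-binding protein, was at 483 and 83.5 CPM, 5.79-fold higher (5.34 to 6.29), and was detected in 78.9% and 21.8%. In FVB/NJ adults S100a14 was at 80.3 and 104 CPM in D12 and A10 and at 53.1 CPM in P7. For both genes the TEB level stood above the duct level and all 5 of these other libraries.

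Signalling molecules were the next group. Wnt5a, a noncanonical WNT ligand known to restrain ductal growth, was at 353 and 73.9 CPM, 4.78-fold higher (4.38 to 5.22), with 11.7 CPM before puberty, 113 CPM in the C57BL/6 adult and 55.1 to 163 CPM in FVB/NJ, P7 included. It was detected in 68.6% of TEB and 26.4% of duct ML cells, and in 2.4% and 0.2% of LP cells. In basal cells Wnt5a was also past 2-fold higher in TEBs by the class rule, but was not counted so when restricted by markers. Wnt7b was at 69.3 and 31.7 CPM, 2.18-fold higher, and these were the only WNT list members above the minimum in ML cells. Cxcl13, a B cell chemokine, was at 90.0 and 0.96 CPM, 94.0-fold higher (45.5 to 234), and was seen in 16.4% and 0.3% of ML cells. Its highest level in those 5 libraries was 1.0 CPM.

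Fst (follistatin, an inhibitor of activin) was at 63.8 and 3.1 CPM, 20.3-fold higher (13.5 to 32.1), while in marker-restricted basal cells it was 2.41-fold lower in TEBs (89.6 and 216 CPM). The A10 and D12 libraries differed by a log2 ratio of 4.40 at Fst, as much as TEBs and ducts (4.34). Hbegf, a ligand of the EGF receptor, was at 97.6 and 19.8 CPM (4.92-fold, and 2.88-fold by the class rule), and Fgfr3, a receptor for fibroblast growth factors, at 23.8 and 5.5 CPM (4.35-fold). Flt1, a receptor for VEGF, was at 33.8 and 1.2 CPM, 27.4-fold higher. Il33, an alarmin cytokine, was at 387 and 129 CPM in ML cells, 2.99-fold higher, with 410 CPM before puberty and 17.6 CPM in the C57BL/6 adult.

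H19, an imprinted noncoding RNA, was at 58.3 and 0.54 CPM, 107-fold higher (41.5 to 392), and was present in 7.8% and 0.5% of ML cells. It was at 27 CPM before puberty and at most 0.56 CPM in the adult libraries. Thbs1 (thrombospondin 1), Itgb3 (integrin beta 3) and Creb5 were 15.6-fold, 7.52-fold and 12.1-fold higher in marker-restricted cells but 3.65-fold, 2.75-fold and 1.11-fold by the class rule, with Creb5 at 41.6 CPM in duct ML cells before and 3.0 CPM after restriction. Tenm4 had 3 UMIs in duct ML cells, a ratio of 63.0 (21.5 to 307) that was 20.4 by the class rule. Cacna2d3, Rdh10 and Tmcc3 were 12.7-fold, 7.61-fold and 6.57-fold higher, and Tmcc3 3.13-fold by the class rule. The class rule named Oasl2, S100a14, Ctns and Irf7 in place of Thbs1, Creb5, Itgb3 and Tmcc3, and 8 of 12 genes were shared.

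The hormone receptors and hormone targets of ML cells, which chose the class, were not past 2-fold. Esr1 (estrogen receptor alpha) was at 54.7 CPM in TEBs and 44.5 CPM in ducts, Pgr (progesterone receptor) at 216 and 181 CPM and Areg at 2906 and 2140 CPM. Prlr was at 1103 and 1671 CPM and Cited1, a coregulator of the estrogen receptor, at 1076 and 1392 CPM. Of 24 ML identity genes 19 passed the minimum, with 6 lower (Fxyd2, Gpx3, Fgg, Ido1, Aoc1 and Glul), 1 higher (Rcan1) and a median log2 ratio of -0.04. The summed list was nevertheless 3458 CPM in TEBs and 8251 CPM in ducts, since Gpx3 alone made up much of the duct sum.

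**Figure D4:**
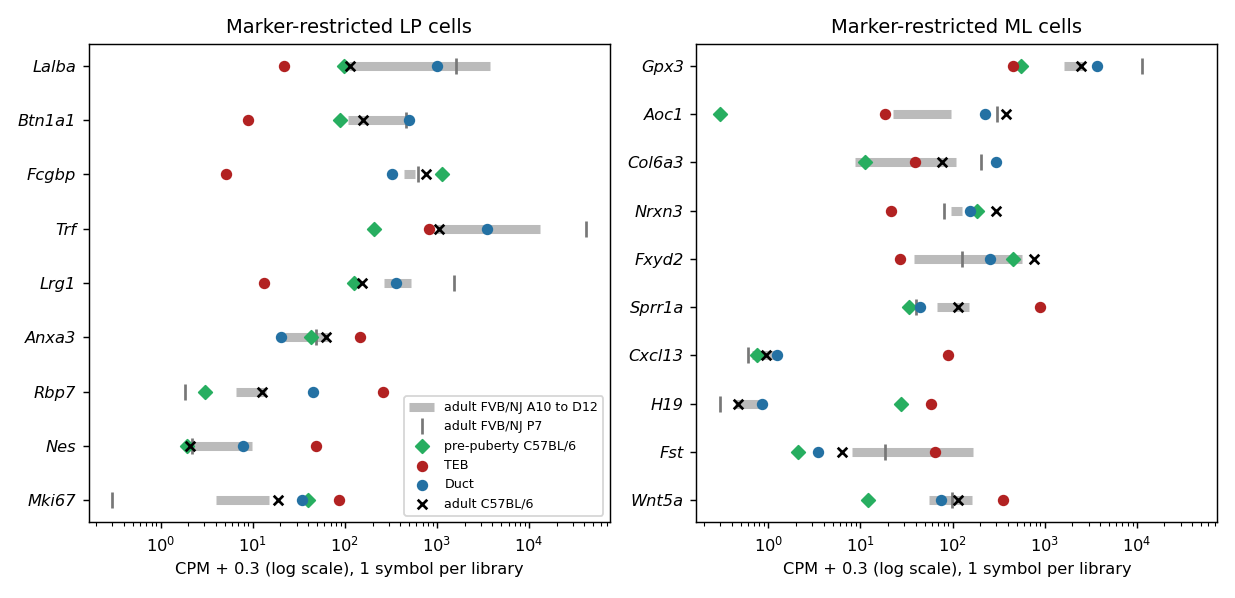
CPM + 0.3 (x axis, log scale) of 9 genes in marker-restricted LP cells and 10 genes in marker-restricted ML cells, 1 symbol a library: TEB (red), duct (blue), pre-puberty C57BL/6 (green), adult C57BL/6 (cross) and adult FVB/NJ (gray bar from A10 to D12, gray tick P7). Lalba and Btn1a1 in TEBs (21.4 and 8.7 CPM) lie below every other library, and Sprr1a, Cxcl13 and Wnt5a in TEBs (883, 90.0 and 353 CPM) lie above every other library.

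Glycolysis and hypoxia genes were higher in TEB ML cells. All 14 glycolysis and hypoxia genes above the minimum had a log2 ratio above 0, as most genes had (median 0.18), and the list median was 0.90. Of the 14, 5 were at least 2-fold higher. These were Pgk1 (382 and 156 CPM), Eno1 (308 and 138 CPM), Pfkl, and the hypoxia-induced genes Bnip3 and Ddit4 (4.40-fold and 2.74-fold). The nucleolus and growth list (0.12) and the sterol and fatty acid list (0.23) had ML medians near that of all genes (0.18). In LP cells the glycolysis list had a median of 0.26 and no member past 2-fold, and in basal cells by the class rule a median of 0.74 with 3 members higher. Of the G1 list, Ccnd1 (cyclin D1) was at 482 and 231 CPM in ML cells, and the inhibitors Cdkn1a (224 and 77.6 CPM) and Cdkn2a (21.5 and 6.3 CPM) were higher as well. In LP cells Cdkn1a was instead 3.46-fold lower in TEBs, at 12.6 and 43.5 CPM (2.17-fold by the class rule), and Cdkn2d 2.45-fold higher. The G2 and M phase list in ML cells had a median of 0.64 with Aurka and Plk1 past 2-fold, smaller than in LP cells.

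All 10 MHC and interferon genes above the minimum were above 0 in ML cells, with a median of 0.60. The median over all ML genes was 0.18, so most genes were above 0 too. Isg15, a ubiquitin-like protein induced by interferon, was the one past 2-fold above the minimum, at 74.9 CPM in TEBs and 13.7 CPM in ducts, 5.48-fold higher (4.48 to 6.77), and it was 3.17-fold higher in LP cells, where Irf7 was 2.20-fold higher. Irf7 in ML cells was at 15.9 and 2.6 CPM, 6.13-fold higher but under the mean of 10 CPM, and it passed both limits by the class rule (5.46-fold). In basal cells Isg15 was at 5.1 CPM in both libraries and the list median was -0.69 by the class rule. RefSeq promoters of 13 of the 17 listed genes (15 promoters) were searched on both strands for GAAANNGAAA, the core of the interferon-stimulated response element. It was found in 5 of 15, against 3.44% of all promoters. The Isg15 promoter, shown because Isg15 was past 2-fold in both LP and ML cells, held 3 overlapping matches at -78, -72 and -66 from its start (capitals).
Isg15, chr4:156200769-156201068, minus strand: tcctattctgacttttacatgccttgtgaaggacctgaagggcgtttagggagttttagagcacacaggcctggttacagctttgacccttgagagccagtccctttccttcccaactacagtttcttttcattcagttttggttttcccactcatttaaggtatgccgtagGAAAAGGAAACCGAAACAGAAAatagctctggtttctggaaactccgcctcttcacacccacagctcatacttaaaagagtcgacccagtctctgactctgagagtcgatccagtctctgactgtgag

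Other pathway lists are given by their members past 2-fold. In the EGF and FGF list, Spry1 and Etv5, targets of receptor tyrosine kinase signalling, were 3.06-fold and 2.05-fold higher in TEB LP cells, and Fgfr1 was 2.66-fold lower. In the TGF-beta and BMP list, Tgfb3 was 3.12-fold lower in LP cells (71.9 and 225 CPM) and Tgfbr1 2.61-fold higher in ML cells beside Fst. In the matrix list, Serpine2 and Thbs1 were higher and Spp1 (osteopontin) lower in TEB LP cells, of 11 above the minimum. In ML cells 4 of 8 (Timp1, Timp2, Plaur and Thbs1) were at least 2-fold higher, with 7 of the 8 above 0 and a list median of 0.90 against 0.18 over all genes. No Notch list member was past 2-fold in either class, with medians of -0.17 in LP and 0.39 in ML cells. Hey1, the Notch target given above, is on the LP identity list instead and was past 2-fold lower in TEB LP cells. The sterol and fatty acid list had Scd1 and Scd2, stearoyl-CoA desaturases, higher in LP cells (3.06-fold and 2.72-fold), and the steroid and growth hormone list had Igfbp4, 7.84-fold higher (18.4-fold by the class rule) but abundant in TEB basal cells at 535 CPM.

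Single members differed in the remaining lists. Cxcl1 and C3 were lower in TEB LP cells among innate defence genes, and Il33 was higher and Cxcl17 lower in ML cells. Cxcl1 was also 7.02-fold lower in TEB basal cells by the class rule. Among pan-luminal genes Krt7 was 2.48-fold higher and Elf3 and Muc1 were 2.05-fold and 2.98-fold lower in LP cells. Epha2 and Trp53inp1 were 2.25-fold and 2.71-fold higher in ML cells. The nucleolus and growth list had no member past 2-fold in either class.

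**Figure D5:**
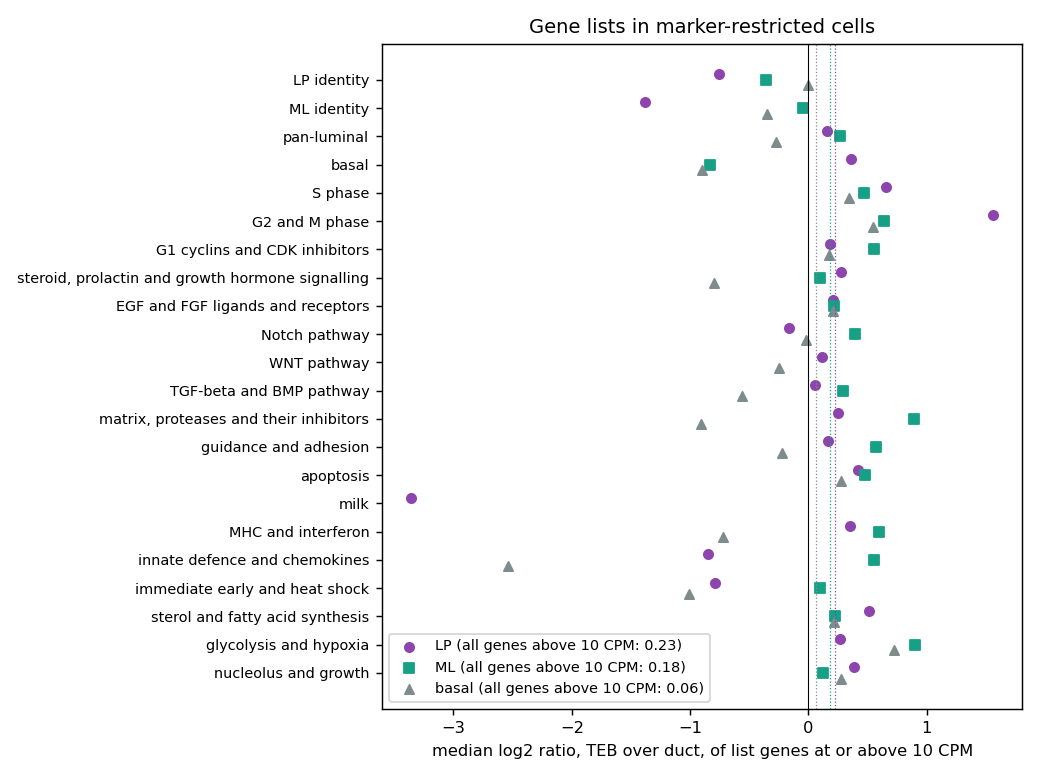
Median log2 ratio of TEB over duct (x axis) of the members of each gene list with a mean of at least 10 CPM, in marker-restricted LP (purple), ML (green) and basal (gray) cells, with dotted lines at the median of all genes (0.23, 0.18 and 0.06). In LP cells the milk list lies at -3.36 (7 genes), the ML identity list at -1.38 (3 genes, and -0.28 over 5 genes by the class rule) and the G2 and M phase list at 1.56 (21 genes).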

How the data were processed

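The authors deposited raw UMI counts per gene and cell barcode for each library, made with Cell Ranger 3.0.2 per the file headers (3.1.0 is also named in the submitters' processing notes, with the mm10 build) and exported for barcodes with at least 500 reads assigned to genes. The table holds 31053 features. Columns of other samples number 0.

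From these counts, cells were kept and classed by the rule given in the report, UMIs were summed by library and class and divided by the class total to give CPM, and ratios carry exact conditional (Clopper-Pearson) 95% intervals. Shares carry exact binomial intervals and their differences Newcombe intervals. Thinning drew 5000 UMIs from each cell. Doublets were marked with Scrublet in scanpy 1.11.5 and kept, and their removal was an alternative. The caller marked under 0.5% of duct cells. TMM factors came from edgeR 4.0.16, which was used for nothing else. Python 3.11.15, numpy 2.4.6, pandas 2.3.3, scipy 1.17.1, matplotlib 3.10.9 and R 4.3.3 were used. The comparison by the class rule was tested on simulated Poisson counts: of the genes changed by 1.5 or 2 on the log2 scale 100% were recovered in LP cells (94 and 106 genes of 7487) and in ML cells (99 and 101 of 7435), with 0 unchanged genes called and the true value inside 95.7% and 95.3% of the intervals. This covers counting error only. The changed genes were drawn from those at 2 times the CPM minimum or more, so genes near the CPM or fold limits were not tested.

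Named genes are the 12 with the largest ratio in each direction in each class at a mean of 10 CPM or more, without class rule genes, mitochondrial and ribosomal protein genes, Gm and Rik names, and genes whose basal CPM in the library where they are higher was over 5 times that in the class. To these were added the class rule genes and list members past 2-fold. The cell set, the gene lists and the members were chosen with earlier results of these data known. The restriction to cells with their own markers at 5 times the other sets, and genes named in those cells, were chosen after the data were seen. Of 421 list entries 419 were matched, with Chi3l1 unmatched and Aldoa left out because 2 features share its symbol. The study's own limits (15% mitochondrial UMIs and upper limits on genes and UMIs) leave 1847 TEB and 1700 duct cells and were an alternative, as were 1000 genes a cell, a 10% mitochondrial limit, 3 times the basal keratins, LP at 3 and ML at 4 UMIs, thinning, removal of cycling cells, TMM scaling, the mean of per-cell CPM, CPM minimums of 5 and 50 or none, and 1.5-fold. The bulk RNA and chromatin data of the study were not analysed here.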

Additional observations from a re-analysis of the deposited data

Results flagged for a closer look

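Among the named genes and list members, 6 genes stood past 2-fold in opposite directions in marker-restricted luminal and basal cells of the same 2 libraries at a mean of 10 CPM or more in both classes. The difference between the classes was not tested, since each group was 1 library. Map1b had a log2 ratio of TEB over duct of 2.32 in marker-restricted LP cells and -2.44 in basal cells, Tagln of 2.91 and -1.59, and Thbs1 of 1.78 and -1.56. In ML cells Thbs1 was at 3.96 (basal -1.56), Creb5 at 3.59 (basal -1.21), Fst at 4.34 (basal -1.27) and Bex4 at -2.98 (basal 1.47).

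Luminal cells in neither class, which entered no comparison of levels, made up 9.95% of luminal cells in TEBs and 2.20% in ducts. By markers most of them were not luminal: in 140 of 167 TEB cells the basal set was the largest, with Acta2 at 3597 CPM, Trp63 at 64.4 CPM and Krt8 at 244 CPM, against 206 CPM of Krt8 in TEB basal cells, and in ducts this held for 18 of 22.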

How the results depend on the processing

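The LP count of genes past 2-fold (807) was 1542 without cycling cells, 494 where the largest of the 3 marker sets had to match the class, 435 in marker-restricted cells, 250 at 50 CPM, 3091 with no minimum and 2258 at 1.5-fold. The ML count (311) was 947 without cycling cells, 491 at 5 CPM, 86 at 50 CPM, 2578 with no minimum and 1027 at 1.5-fold. The basal count (593) was 984 after thinning, 3326 without cycling cells, 171 at 50 CPM, 2833 with no minimum and 1661 at 1.5-fold. Removal of cycling cells left 28 TEB and 161 duct LP cells, 43 and 72 ML cells and 4 and 183 basal cells. Cycling here meant 3 or more cycle-gene UMIs in counts that were not thinned. Deeper cells reach that limit more easily, and it does not count dividing cells. The difference in LP share (-26.2 points) was -32.2 with the largest set matching and -33.7 in marker-restricted cells. The ML difference in cells with cycle-gene UMIs (28.3) was 22.2 at 5 UMIs.

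The LP identity list in ML cells (-1.17) was -1.04 under the study's limits, -1.20 with LP at 3 and ML at 4 UMIs, -1.09 thinned, -1.34 with TMM, -0.98 as a mean per cell and -0.28 with the largest set matching. It reversed to 0.10 without cycling cells and to 0.14 in marker-restricted cells. The ML identity list in LP cells (-1.43) was -1.33 under the study's limits, -0.93 thinned, -0.31 without cycling cells, -1.67 with TMM, -1.03 as a mean per cell and -1.08 in marker-restricted cells. In single genes, Creb5 in ML cells reversed with TMM (-0.024). Beyond the fewer cells named above, the cause was not tested. No direction could be given in 21 gene and setting pairs in LP cells and 2 in ML cells, where both libraries had at most 3 UMIs or the floor for a library at 0 exceeded the other level, most of them without cycling cells. Of the genes followed through 12 alternatives, 18 of 38 in LP cells and 28 of 36 in ML cells were past 2-fold in one direction in all.

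No paired analysis was possible because each group had 1 library. Counts near the minimum limit low genes: 1 cell can carry most of a sum, as for Csn2 in duct and Dcpp1 in TEB LP cells.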
